A study of Homo sapiens with 20 samples.

Results

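The CTCF and cohesin sites of 10 imprinted genes, H19, IGF2, KCNQ1OT1, MEG3, DLK1, PEG3, PEG10, MEST, GRB10 and NNAT, were described in M14 cells, an established human melanoma line. These genes were taken for their known control by CTCF, and their sites were all peaks that overlapped the hg19 bounds of the gene in GENCODE or the 10 kb on either side. The windows held 669 of the 1600648 peaks of 16 lists, and merging peaks that overlapped by at least 1 bp gave 86 sites, 42 of them at GRB10 and 0 at DLK1. The 10 genes are among 38865 annotated protein-coding and lncRNA genes.

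The study profiled STAG1, STAG2, CTCF and SMC1A by ChIP-seq to ask how STAG2 shapes chromatin contacts in melanoma. Per the labels of replicate 1, all cells carried a doxycycline-inducible shRNA against STAG2, were kept in puromycin, and were called STAG2-KD after 5 d with doxycycline and WT without it, so the drug and the knockdown cannot be told apart. The labels of replicate 2 give only M14, the antibody and the names wild type and STAG2-KD. For every antibody, 2 libraries came from WT and 2 from STAG2-KD cells, prepared as separate sets that are here called replicate 1 and replicate 2, and nothing in the labels says that they came from separate cultures, so p-values measure only the spread between these libraries.

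Imprinted genes are expressed from the maternal or the paternal copy alone, under the control of nearby DNA that is methylated on a single parental allele. CTCF binds the unmethylated allele at several of these control regions, and the cohesin ring, built on SMC1A with STAG1 or STAG2 as an alternative subunit, stops at CTCF and holds loops. The best known case is the control region upstream of H19, where CTCF on the maternal allele insulates IGF2 from enhancers that it shares with H19. The peak lists cannot separate the alleles, and they hold neither expression nor DNA methylation, so the identity of the cells could not be checked from them.

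The sequences are shown first because the levels below refer to them. At H19 a run of 17 bases was found in 6 copies within a single site and nowhere else in hg19, and it lay within 100 bp of 2 of the 86389 CTCF summits of WT replicate 1 (0.00232%). The copies are shown with 18 bases on each side, on the minus strand, the strand of H19, with the shared run in capitals. From copy 1 to copy 6 their centres lie 5.18, 4.77, 4.37, 2.94, 2.53 and 2.12 kb upstream of position 2019072 on chromosome 11, where 7 of the 31 annotated H19 transcripts start.
H19 repeat copy 1, chr11:2024222-2024274: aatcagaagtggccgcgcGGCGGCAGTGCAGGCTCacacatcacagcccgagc
H19 repeat copy 2, chr11:2023817-2023869: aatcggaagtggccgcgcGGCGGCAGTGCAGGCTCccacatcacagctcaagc
H19 repeat copy 3, chr11:2023416-2023468: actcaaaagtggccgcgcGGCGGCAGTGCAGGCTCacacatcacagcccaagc
H19 repeat copy 4, chr11:2021983-2022035: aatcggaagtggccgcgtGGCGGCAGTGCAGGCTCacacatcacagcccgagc
H19 repeat copy 5, chr11:2021577-2021629: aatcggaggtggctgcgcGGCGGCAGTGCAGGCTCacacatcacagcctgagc
H19 repeat copy 6, chr11:2021171-2021223: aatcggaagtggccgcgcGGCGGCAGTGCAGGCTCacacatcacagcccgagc

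The CTCF peaks of the windows, merged over the lists, were searched on both strands with a 20-base CTCF matrix. The matrix was built from 2000 strong summits outside the windows, and its consensus reads GGCCACCAGGGGGCGCNNNN. A match had a log2 odds score of at least 11.98, a limit that 1% of 200-base sequences 5 kb from the summits reached. Of all CTCF peaks, 39.2% and 38.6% held a match within 100 bp of the summit in WT and STAG2-KD of replicate 1, and 29.1% and 30.2% in replicate 2. In the windows the shares were 34.8% and 32.5% in replicate 1 and 34.0% and 32.6% in replicate 2. H19, PEG10 and NNAT had no match past the limit and DLK1 had no CTCF peak to search. The lack of a match says only that no sequence in their CTCF peaks reached the limit. The strongest match at 7 sites is shown with 20 bases on each side, on the plus strand of hg19, with the matched bases in capitals, because the CTCF levels below refer to these sites. At the IGF2 intron site the match lies within 100 bp of the CTCF summit in 2 lists only, those of replicate 2, and the replicate 1 summits lie elsewhere in the same peak, at 2173378 in WT and 2173374 in STAG2-KD.
MEG3 exon site, plus match, score 21.75, chr14:101317631-101317690: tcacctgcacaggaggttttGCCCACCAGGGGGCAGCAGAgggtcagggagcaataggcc
MEG3 promoter site, plus match, score 21.34, chr14:101293612-101293671: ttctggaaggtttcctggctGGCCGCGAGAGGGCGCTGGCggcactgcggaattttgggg
IGF2 intron site, minus match, score 17.31, chr11:2172809-2172868: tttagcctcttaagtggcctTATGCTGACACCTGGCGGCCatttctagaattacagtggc
IGF2 upstream site, plus match, score 18.68, chr11:2187489-2187548: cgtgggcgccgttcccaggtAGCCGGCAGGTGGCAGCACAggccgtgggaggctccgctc
KCNQ1OT1 site, plus match, score 13.38, chr11:2713736-2713795: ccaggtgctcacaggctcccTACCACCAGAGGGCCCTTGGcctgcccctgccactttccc
PEG3 promoter site, minus match, score 17.62, chr19:57348910-57348969: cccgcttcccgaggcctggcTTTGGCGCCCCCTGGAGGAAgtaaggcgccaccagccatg
GRB10 intron site, minus match, score 19.82, chr7:50700763-50700822: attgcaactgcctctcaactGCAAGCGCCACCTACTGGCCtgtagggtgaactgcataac

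Each peak has a fold enrichment, the pileup at its summit over the expected background, and a percentile, its rank by fold within its own list, where 100 is the strongest. The value of a site in a list is that of its strongest peak there, and where a wide site holds several peaks they are given separately. The sets were not called alike. Lists of replicate 1 were limited by q-value and those of replicate 2 by p-value, and the latter were longer, so values were compared within a replicate. Peaks were called at a scaled depth of 20.2 to 40.7 M reads in the lists of replicate 1, and at 37.4 to 65.6 M in those of replicate 2. The STAG2 lists, the direct readout of the target here, held 79115 (WT) and 58521 (STAG2-KD) peaks in replicate 1, and 119021 and 106203 in replicate 2.

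Of the 86 sites, 16 had a peak in every list. They lay at H19 (1), IGF2 (3), MEG3 (1), PEG10 (1), GRB10 (9) and NNAT (1), and none at KCNQ1OT1, MEST or PEG3. CTCF was present in all 4 of its lists at 30 sites and in none of them at 41. SMC1A, STAG1 and STAG2 were present in all 4 of their lists at 22, 21 and 20 sites. A further 29 sites were seen in 1 list only, and 28 sites had SMC1A peaks alone, 27 of them in replicate 2 lists only. By position 25 sites were within 1 kb of a transcript start, 8 were exonic, 44 intronic and 9 intergenic. A CTCF peak of the top 5% was found in all 4 CTCF lists at 2 of the 10 genes, H19 and IGF2, against 5.42% of all genes. No peak in any list was found at 1 of the 10, against 7.67% of all genes.

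**Figure D1:**
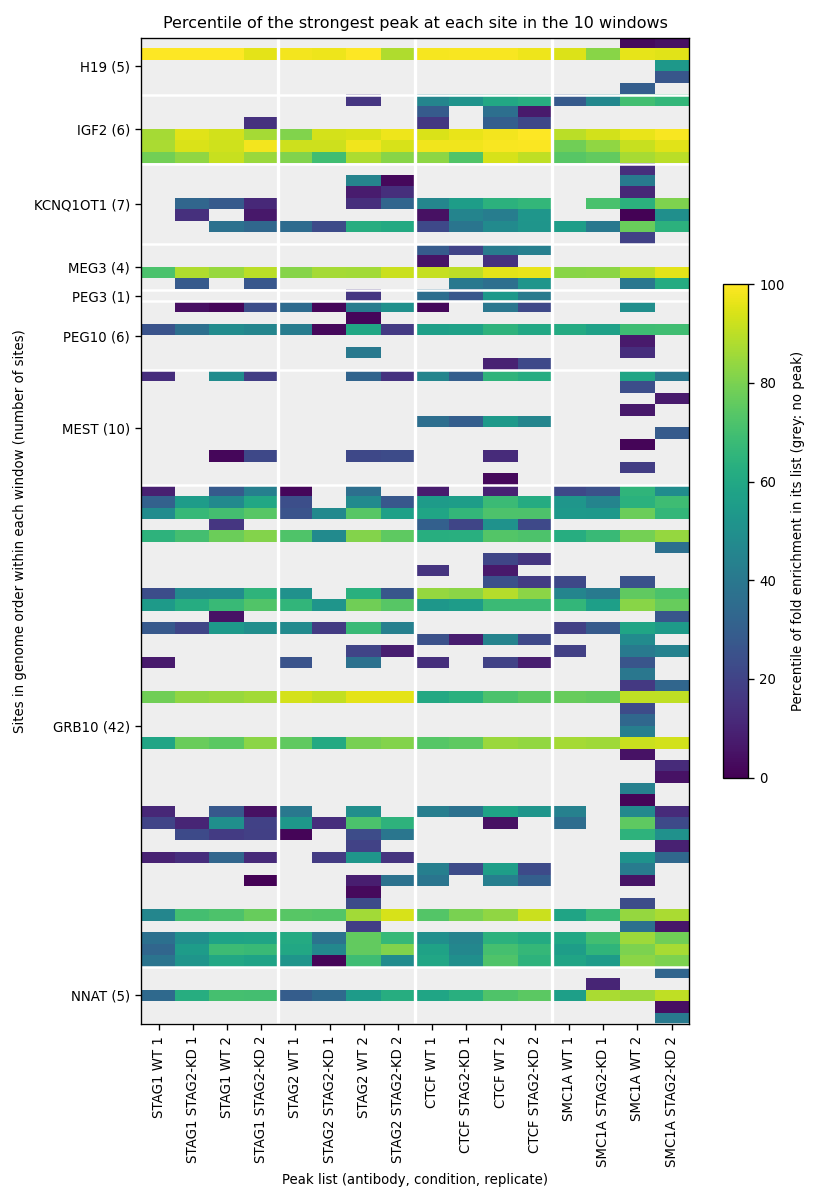
Percentile of the strongest peak at each of the 86 sites (rows, by gene and genome order) in each of the 16 lists (columns, by antibody, replicate and condition), with grey for no peak. The H19 site, 3 IGF2 sites and 1 MEG3 site form bright rows across all 4 antibodies, while most MEST rows are grey outside a few lists.

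H19 encodes an imprinted noncoding RNA. Its site, chr11:2018700-2024840, spans the promoter side and all 6 repeat copies and was the only H19 site with a CTCF peak. CTCF fold at its strongest summit was 105 in WT and 104 in STAG2-KD of replicate 1, and 60.1 and 52.6 in replicate 2, between the 97.5 and 99.1 percentiles of the lists. STAG1 fold was 67.6 and 82.2 in replicate 1 and 40.9 and 30.1 in replicate 2. STAG2 fold was 59.1 in WT and 49.1 in STAG2-KD of replicate 1, and 39.2 and 18.2 in replicate 2. SMC1A fold was 34.3 and 21.9 in replicate 1 and 21.6 and 24.7 in replicate 2. The strongest STAG2 peak was thus lower in STAG2-KD in each replicate (log2 differences of −0.27 and −1.11), although its summit moved between copies, from 2021189 in WT to 2021998 in STAG2-KD of replicate 1 and from 2021956 to 2021163 in replicate 2. At copy 6 in replicate 1 the STAG2-KD list had a separate peak with its summit at 2021181 and a fold of 30.7, beside 59.1 in WT. On the same scale CTCF differed by −0.02 and −0.19, and STAG1 and SMC1A went in opposite directions in the 2 replicates.

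Within the H19 site the summits fell on some copies and not on others. Of 32 peaks over the repeats, 21 had their summit within 25 bp of the centre of a copy. Copies 1, 4 and 6 had such a summit in 9, 8 and 4 lists, and copies 2, 3 and 5 in 0. At copy 3 the nearest summit, of STAG2 in WT replicate 2, lay 29 bp away. Each peak has a single summit and many peaks cover several copies, so a copy without a summit can still be bound. The copies are close to identical, and how reads that match several copies were placed, and the read length, are not given in the sources used here, so the effect of read placement on these heights was not tested.

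The site was also read as 3 stretches. Over the far repeats, copies 1 to 3, STAG2 fold was 28.1 in WT and 19.9 in STAG2-KD of replicate 1, and 28.3 and 17.98 in replicate 2. STAG1 fold there was 34.5 and 42.9 in replicate 1, and 17.2 and 23.7 in replicate 2. SMC1A fold was 13.3 and 21.3, and 9.71 and 20.04. At the far repeats, then, the strongest STAG2 peak was lower and those of STAG1 and SMC1A were higher in STAG2-KD in each replicate. The STAG2 summit of replicate 2 moved between copies, from 2023471 in WT to 2024275 in STAG2-KD, so its heights are not those of a single copy. CTCF had a far-repeat peak of its own only in replicate 1, at 39.3 in WT and 42.4 in STAG2-KD, because a single CTCF peak covered the whole site in replicate 2. On the promoter side, separate peaks of all 4 proteins were called in replicate 1 and all had a lower fold in STAG2-KD. The −log10 q-value there was lower in STAG2-KD for CTCF (199 and 190) and STAG2 (146 and 107). It was higher for STAG1 (149 and 179) and SMC1A (48.1 and 76.9). CTCF fold there was 59.6 and 40.0, STAG1 fold 37.6 and 24.97, STAG2 fold 31.1 and 19.2, and SMC1A fold 19.9 and 17.8. In replicate 2 the promoter side had no separate peak apart from an SMC1A peak of 2.38 in STAG2-KD.

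**Figure D2:**
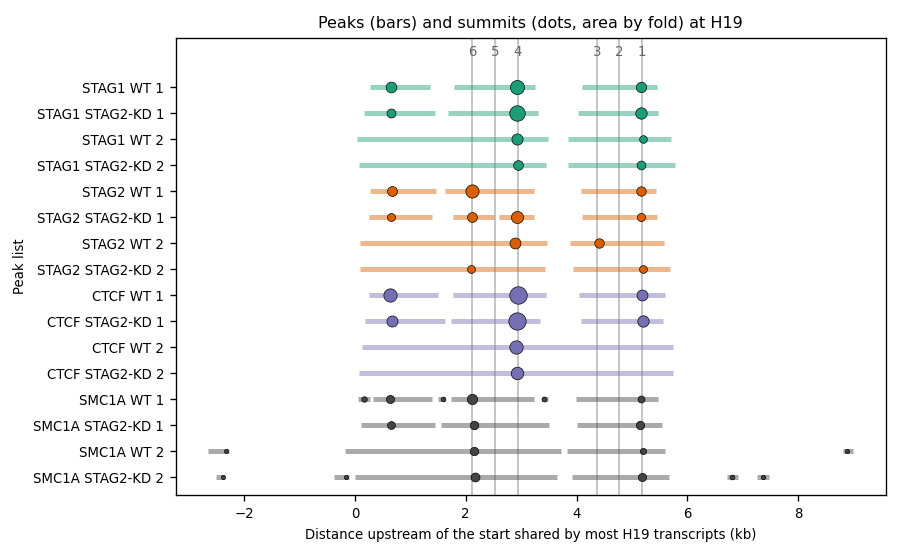
Peaks of the 16 lists (horizontal bars) and their summits (dots, area growing with fold) at H19. The x axis is distance in kb upstream of the most frequent H19 transcript start (7 of 31 transcripts), with negative values downstream. Numbered vertical lines mark the 6 repeat copies. Summits gather at copies 1, 4 and 6, and a further group of summits in replicate 1 lies on the promoter side.

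IGF2, a growth factor gene expressed from the paternal allele in most tissues, had 3 sites in every list. The intron site chr11:2171102-2174202 had CTCF fold of 86.9 in WT and 91.3 in STAG2-KD of replicate 1, and 56.9 and 64.2 in replicate 2. SMC1A fold there was 26.2 and 36.3, and 22.5 and 35.6. STAG2 fold was 28.0 and 39.6, and 26.1 and 28.0. At these strongest peaks STAG2 fold was higher in STAG2-KD in each replicate (log2 differences of 0.50 and 0.10), beside CTCF and SMC1A. STAG1 differed in direction between replicates. The −log10 q-value of STAG2 went the other way, at 155 and 149, and 165 and 152, so the increase holds for fold alone. The site holds a second group of cohesin peaks, chr11:2171191-2172028 in STAG2, where STAG2 fold was 20.2 and 11.6, and 16.8 and 11.4. STAG2 fold was thus lower there and higher at the neighbouring peak in each replicate. SMC1A fold at this second group was 6.84 and 9.42, and 5.18 and 8.25, higher in each.

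The second IGF2 intron site, chr11:2176887-2178632, lies 1.81 kb from the nearest IGF2 start and had the highest mean CTCF percentile of the window. Its CTCF fold was 101 in WT and 95.9 in STAG2-KD of replicate 1, and 60.9 and 60.5 in replicate 2. Its STAG2 fold was 43.8 and 37.2, and 31.8 and 23.2. STAG1 fold was 39.6 and 58.1, and 25.3 and 34.7, so that STAG1 was higher and STAG2 lower in STAG2-KD in each replicate. The third site, chr11:2186970-2188142, is in the promoter of TH, a neighbour that encodes tyrosine hydroxylase, 7.93 kb upstream of IGF2. Its CTCF fold was 58.6 and 41.3, and 46.4 and 40.6, and its STAG2 fold 28.0 and 17.0, and 19.2 and 14.6, both lower in STAG2-KD in each replicate. Another IGF2 site with CTCF in all 4 lists, chr11:2144302-2145161, had CTCF fold of 11.6 and 15.04 in replicate 1, and 10.7 and 13.1 in replicate 2.

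KCNQ1OT1, a long noncoding RNA whose start lies in the control region of a neighbouring imprinted cluster, had 7 sites and CTCF in all 4 lists at 3 of them. The strongest CTCF peak of all 3 was higher in STAG2-KD in each replicate. At chr11:2713354-2714229, 7.42 kb inside the transcript, CTCF fold was 11.7 in WT and 18.4 in STAG2-KD of replicate 1, and 13.2 and 16.3 in replicate 2. SMC1A there had no peak in WT and 13.2 in STAG2-KD of replicate 1, and 4.69 and 10.4 in replicate 2, so it was called or higher in STAG2-KD in each. At chr11:2715050-2715689 it was 4.21 and 11.6, and 5.62 and 8.51, the largest log2 increases of CTCF among the sites in all 4 CTCF lists in the windows, 1.47 in replicate 1 and 0.60 in replicate 2. SMC1A at that site was called in replicate 2 only, at 1.97 and 3.90. A STAG1 peak, chr11:2715158-2715448, was called there in both STAG2-KD lists, at 4.03 and 2.30, and in neither WT list. At the start of KCNQ1OT1, chr11:2719492-2722236, CTCF fold was 5.84 and 9.22, and 6.74 and 8.31, while SMC1A fold was 7.42 and 5.65, and 7.16 and 5.23. The strongest CTCF peak was thus higher and the strongest SMC1A peak lower in STAG2-KD at that start in each replicate, and their summits lay at different places in the site. A weaker CTCF peak further inside the transcript, chr11:2719492-2720194, was lower in each, at 4.29 and 3.52, and 5.43 and 4.42.

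MEG3, a maternally expressed noncoding RNA, and DLK1, a paternally expressed ligand-like membrane protein gene, share an imprinted domain on chromosome 14. DLK1 had no peak in any of the 16 lists. MEG3 had a site in every list at chr14:101316942-101318197, in an exon 4.19 kb from the nearest MEG3 start, with the match of score 21.75 shown above. CTCF fold there was 77.0 in WT and 72.9 in STAG2-KD of replicate 1, and 50.0 and 50.3 in replicate 2. STAG1 fold was 23.7 and 45.9, and 19.01 and 23.1. STAG2 fold was 28.5 and 30.03, and 18.1 and 21.2. SMC1A fold was 19.3 and 22.1, and 14.6 and 25.6. All 3 cohesin subunits were higher in STAG2-KD in each replicate at this site, and CTCF differed by −0.08 and 0.01 on the log2 scale.

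The MEG3 promoter site, chr14:101293354-101293961, lies 0.091 kb from a MEG3 start and held 2 matches. It had CTCF in all 4 lists, with fold of 6.86 in WT and 5.61 in STAG2-KD of replicate 1, and 5.52 and 6.05 in replicate 2, and no peak of SMC1A, STAG1 or STAG2 in any list. The neighbouring CTCF peak, chr14:101294477-101294781, with a match of score 19.5, was called in both WT lists at 4.22 and 3.25 and in neither STAG2-KD list. Near another MEG3 start a STAG1 peak, chr14:101321874-101322177, was called in both STAG2-KD lists at 5.02 and 3.03 and in neither WT list. CTCF at the site around it, chr14:101321620-101322252, had no peak in WT and 9.69 in STAG2-KD of replicate 1, and 4.87 and 8.36 in replicate 2.

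PEG3, a paternally expressed zinc finger gene, had a single site at its promoter, chr19:57348609-57349828, 0.032 kb from a start. CTCF fold was 8.44 in WT and 6.63 in STAG2-KD of replicate 1, and 8.12 and 5.73 in replicate 2, lower in STAG2-KD in each. Its 3 matches were all on the minus strand, and its only cohesin peak was of STAG2 in WT replicate 2, at 2.81.

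PEG10, a paternally expressed gene derived from a retrotransposon, shares a promoter region with SGCE, and the site there, chr7:94284101-94285866, was in every list. STAG2 fold was 6.73 in WT and 3.32 in STAG2-KD of replicate 1, and 5.94 and 2.94 in replicate 2. The log2 differences were −1.02 and −1.01, and the STAG2 percentile went from 42.1 to 2.12 and from 59.6 to 17.0. STAG1 fold was 5.29 and 5.77, and 4.58 and 4.11, and SMC1A fold 8.62 and 8.00, and 5.36 and 6.12. CTCF fold was 18.6 and 19.9, and 13.6 and 11.7. The STAG2 summit of replicate 2 was at position 94285527 in WT and at 94284667 in STAG2-KD, in peaks that covered both positions. Among these strongest peaks, only STAG2 thus kept the same direction in each replicate. The site also holds a weaker group of STAG1 peaks, chr7:94284308-94284902 in WT of replicate 2. STAG1 there had no peak in WT and 3.23 in STAG2-KD of replicate 1, and 2.03 and 2.69 in replicate 2, so it was called or higher in STAG2-KD in each.

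MEST, a paternally expressed gene of the hydrolase fold family, had 10 sites, of which 7 were in 1 list only. Its first promoter site, chr7:130125647-130126426, had CTCF fold of 11.6 in WT and 7.14 in STAG2-KD of replicate 1, and 13.8 and 13.0 in replicate 2. A second promoter site, chr7:130130461-130131206, had CTCF in all 4 lists, at 8.44 and 7.14, and 8.43 and 6.57, with no cohesin peak in any list. CTCF was lower in STAG2-KD in each replicate at both.

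GRB10, which encodes an adaptor that dampens insulin receptor signalling and is imprinted by tissue and promoter, had the widest window (223 kb) and 42 sites. The CTCF site with the highest mean percentile over the 4 CTCF lists, chr7:50700105-50701410, had fold of 61.1 in WT and 57.9 in STAG2-KD of replicate 1, and 39.2 and 32.6 in replicate 2, at percentiles of 82.6 to 88.8, and was the strongest GRB10 site in the other 3 CTCF lists but not in STAG2-KD replicate 2. STAG2 fold at this site was 8.27 in WT with no peak in STAG2-KD of replicate 1, and 6.66 and 3.31 in replicate 2, while STAG1 fold was 5.16 and 7.82, and 4.66 and 7.57. STAG1 was higher and STAG2 lower or absent in STAG2-KD here in each replicate. The site at the 5′ end of the gene, chr7:50857904-50861803, had STAG2 fold of 11.8 and 6.73, and 11.03 and 7.85, and CTCF fold of 13.7 and 11.6, and 13.3 and 12.5. At chr7:50869379-50870220, 8.64 kb upstream, STAG2 fold was 8.64 and 3.07, and 8.05 and 4.74, and CTCF fold 21.1 and 14.1, and 20.9 and 14.99. STAG2 and CTCF were lower in STAG2-KD in each replicate at both of these sites. Another GRB10 promoter site in every list, chr7:50849240-50851374, went the other way in CTCF, with fold of 40.6 and 53.0, and 33.1 and 42.8 (log2 differences of 0.38 and 0.37). Of the 15 GRB10 sites with CTCF in all 4 lists, CTCF was higher in both replicates at 5 and lower in both at 8. The shares over all such sites of the genome were 34.7% and 34.2%. An intron site, chr7:50746466-50747935, had the highest STAG2 percentiles of the window, 93.4 in WT and 90.9 in STAG2-KD of replicate 1 and 95.8 and 96.0 in replicate 2.

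NNAT, neuronatin, a paternally expressed gene inside an intron of BLCAP, had 1 site in every list, chr20:36154656-36158534, 6.94 kb from the nearest NNAT start. CTCF fold was 20.9 in WT and 27.0 in STAG2-KD of replicate 1, and 20.6 and 25.1 in replicate 2. SMC1A fold was 7.53 and 27.3, and 11.3 and 18.2, log2 differences of 1.86 and 0.69, the largest of SMC1A in replicate 1 at the sites in every list. STAG1 fold was 6.37 and 14.3 in replicate 1 but 10.5 and 9.69 in replicate 2. At the CTCF summit STAG2 fold was 5.37 and 4.37 in replicate 1 and 5.27 and 6.70 in replicate 2, with opposite directions. At a separate STAG2 peak of the same site, chr20:36155802-36156801, STAG2 fold was 4.04 and 6.17, and 3.88 and 6.07, higher in STAG2-KD in each replicate.

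**Figure D3:**
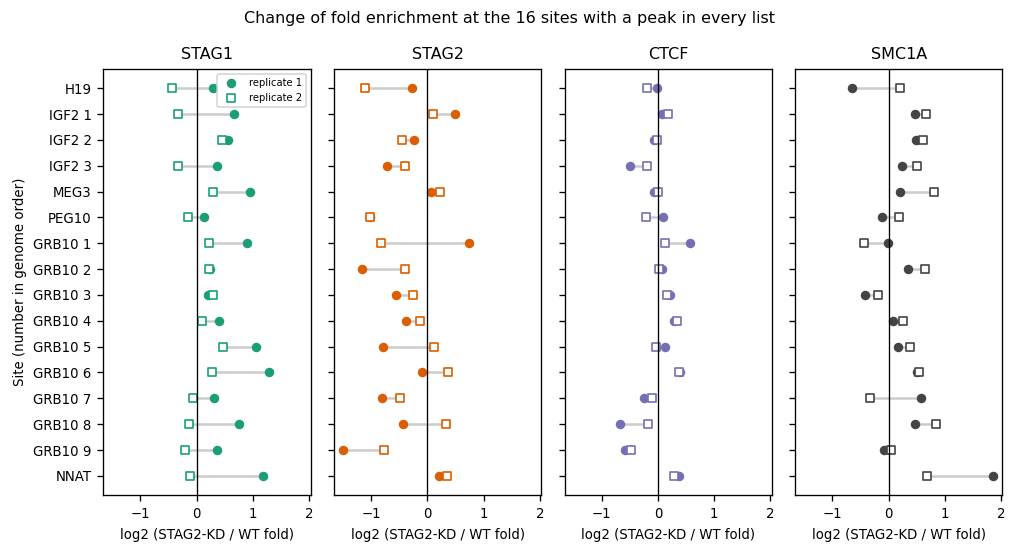
The log2 ratio of fold in STAG2-KD to WT (x axis) at the 16 sites present in every list (rows, numbered in genome order within a gene), for the strongest peak of each antibody, with filled circles for replicate 1 and open squares for replicate 2. STAG2 lies near −1 in both replicates at PEG10 and above 0 at NNAT, MEG3 and IGF2 site 1. The strongest peak can have different summits in WT and STAG2-KD, as for STAG2 at PEG10 in replicate 2 and at NNAT in replicate 1.

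The next question was whether the windows as a whole had fewer or more peaks after STAG2 KD. STAG1 peaks numbered 28 in WT and 32 in STAG2-KD of replicate 1, and 38 and 41 in replicate 2. STAG2 peaks numbered 34 and 28, and 50 and 36. CTCF peaks numbered 46 and 40, and 50 and 43. SMC1A peaks numbered 45 and 37, and 66 and 55. STAG1 was higher and the other 3 proteins lower in STAG2-KD in each replicate. The mean log2 ratio was 0.15 ± 0.059 (SD, n = 2) for STAG1, with p = 0.667 in a two-sided exact permutation test. It was −0.38 ± 0.14 (SD, n = 2) for STAG2 (exact permutation p = 0.667), −0.21 ± 0.011 for CTCF (exact permutation p = 0.333) and −0.27 ± 0.014 for SMC1A (exact permutation p = 0.667). With 2 lists against 2 the smallest p this test can give is 0.333, so it cannot reach 0.05. Each list was then limited to its 58521 peaks of highest −log10 p, the number in the shortest list. The mean log2 ratio of STAG1 then turned to −0.12, and STAG2 gave −0.04, CTCF −0.02 and SMC1A −0.25. In the whole lists the STAG1 log2 ratios were 0.43 and 0.09 and those of STAG2 −0.43 and −0.16, while CTCF gave 0.04 and −0.08, and SMC1A 0.15 and 0.02.

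**Figure D4:**
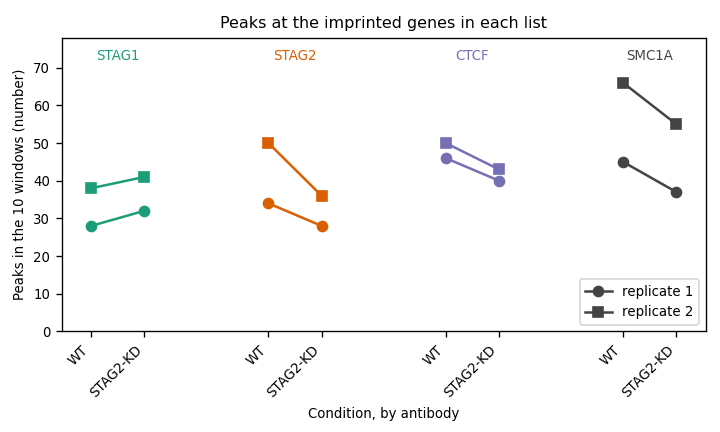
Number of peaks in the 10 windows (y axis) in WT and STAG2-KD lists of each antibody (x axis), with circles for replicate 1 and squares for replicate 2 and a line for each replicate. STAG1 went from 28 to 32 and from 38 to 41, and the lines of the other antibodies slope down.

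A WT peak with no STAG2-KD peak in the same replicate was counted as lost, and a STAG2-KD peak with no WT peak as gained, so both rest on whether a peak passed the authors' thresholds. For STAG2, 10 of 34 WT peaks in the windows were lost in replicate 1, where 32.2% of the whole list was, and 15 of 50 in replicate 2, where 22.1% was. STAG2 gains were 2 of 28, against 6.62%, and 1 of 36, against 12.0%. GRB10 held 7 of the 10 and 9 of the 15 lost STAG2 peaks, beside 18 of the 34 and 27 of the 50 WT peaks. Lost STAG2 peaks were weak, with median WT percentiles of 24.8 and 18.4 against 69.1 and 67.7 for kept peaks, as in the whole lists (22.4 and 19.3 against 66.1 and 60.9).

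For STAG1, 4 of 28 and 4 of 38 peaks were lost, against 6.42% and 13.6% of the lists, and 8 of 32 and 6 of 41 were gained, against 31.7% and 18.6%. KCNQ1OT1 held 2 of the gained STAG1 peaks in each replicate, beside 2 of the 32 and 5 of the 41 STAG2-KD peaks. For CTCF, 11 of 46 peaks were lost in replicate 1, against 12.3%, and 7 of 50 in replicate 2, against 16.9%, while 5 of 40 were gained, against 15.1%, and 0 of 43, against 12.1%. IGF2 held 4 of the 11 lost CTCF peaks of replicate 1, and GRB10 held 5, beside 9 and 20 of the 46 WT peaks. For SMC1A, 9 of 45 and 27 of 66 were lost, against 19.1% and 25.8%, and 6 of 37 and 13 of 55 were gained, against 28.6% and 29.7%. The share of SMC1A peaks lost in replicate 2 was 40.9% in the windows.

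**Figure D5:**
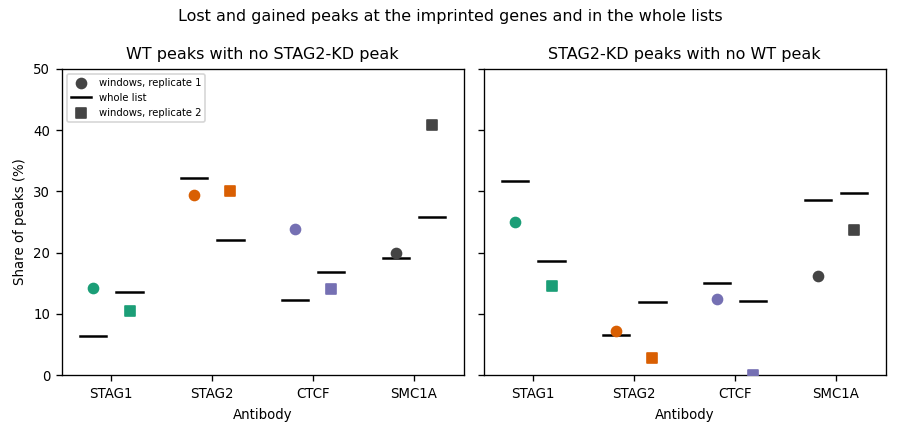
Share of peaks in percent (y axis) that were lost (left) or gained (right) for each antibody (x axis), with circles for replicate 1 and squares for replicate 2 in the 10 windows and black bars for the whole list of the same replicate. STAG2 losses are at 29.4% and 30% in the windows, beside bars at 32.2% and 22.1%, and SMC1A losses in replicate 2 lie above their bar.

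Few changes recurred in both replicates. Of 30 STAG2 sites with a peak in both WT lists, 4 were lost in both, against 4.98% of all such sites. All 4 were at GRB10, chr7:50652460-50652947, chr7:50736284-50736585, chr7:50780560-50781015 and chr7:50858082-50858740, with WT fold of 3.27 to 6.41. No STAG2 site of 24 was gained in both, against 0.734%. For CTCF 3 of 40 were lost in both, against 3.11%, the MEG3 peak described above and GRB10 peaks at chr7:50652582-50652970 and chr7:50696294-50696571, and 0 of 34 were gained, against 1.92%. The first of the GRB10 sites, 10.7 kb from the nearest GRB10 start, thus lacked both STAG2 and CTCF in STAG2-KD. For STAG1 0 of 26 were lost in both, against 1.41%, and 2 of 30 were gained, against 6.18%, the KCNQ1OT1 and MEG3 peaks. For SMC1A 1 of 28 was lost, against 3.22%, at chr7:50699402-50699581 in GRB10, and 0 of 25 were gained, against 5.70%.

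Strength was then compared at sites present in all 4 lists of an antibody, with sites merged within that antibody. STAG2 fold was lower in STAG2-KD in both replicates at 13 of 23 sites and higher in both at 3, against 55.4% and 15.4% of such sites genome-wide. The 3 sites with higher STAG2 fold were chr11:2172231-2173888 at IGF2, chr14:101317216-101318151 at MEG3 and the separate NNAT peak chr20:36155802-36156801. At the IGF2 site the −log10 q-value was lower in STAG2-KD in each replicate. STAG1 fold was higher in both at 11 of 23 sites and lower in both at 3, against 48.0% and 16.9%. SMC1A fold was higher in both at 14 of 24 and lower at 4, against 52.1% and 19.1%. CTCF fold was higher in both at 11 of 32 and lower in both at 16, against 34.7% and 34.2%.

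The median percentile at these sites went from 48.6 to 66.9 for STAG1 in replicate 1 and from 70.5 to 73.0 in replicate 2. For STAG2 it went from 65.8 to 47.8 and from 78.4 to 75.3. For CTCF it went from 53.9 to 53.3 and from 66.5 to 63.4, and for SMC1A from 59.0 to 66.3 and from 82.4 to 82.2. The mean difference was 10.4 ± 11.2 (SD, n = 2) for STAG1 and −10.5 ± 10.5 for STAG2 (exact permutation p = 0.667 each), −1.81 ± 1.75 for CTCF (exact permutation p = 0.667) and 3.51 ± 5.35 for SMC1A (exact permutation p = 1). The differences of STAG1 and STAG2 were in opposite directions in each replicate and far larger in replicate 1. The median change of percentile per site was 10.9 and 0.57 for STAG1 in the windows, against 9.02 and 1.25 genome-wide. For STAG2 it was −13.1 and −4.28, against −8.51 and −1.88. For CTCF it was −0.47 and −2.30, against 0.85 and −1.58, and for SMC1A 2.59 and 1.01, against 1.91 and −0.018. Genome-wide, the median log2 difference of fold was 0.39 and 0.05 for STAG1 and −0.40 and −0.15 for STAG2, and in the windows it was 0.40 and −0.06 for STAG1 and −0.50 and −0.31 for STAG2.

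CTCF peaks without an SMC1A peak were also counted, as at the MEG3 and PEG3 promoter sites and the second MEST promoter site. In WT, 20 of 46 CTCF peaks in the windows overlapped no SMC1A peak in replicate 1 (43.5%, against 38.6% of all CTCF peaks), and 14 of 50 in replicate 2 (28.0%, against 34.8%). In STAG2-KD the shares were 35.0% and 34.9%, against 34.7% and 29.5%. In WT the windows thus lay above the whole list in replicate 1 and below it in replicate 2. In STAG2-KD they were near equal to it in replicate 1 and above it in replicate 2.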

How the data were processed

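The 16 deposited lists are MACS2 narrowPeak calls, 1 per library, against input; the 4 input libraries had no list. The methods name bowtie2, samtools, picard and MACS2 with hg19, and the submitters' processing notes list Bowtie2 for replicate 1 and BWA for replicate 2. The authors' columns give a whole-number score, a fold ratio over background at the summit, −log10 p-value, −log10 q-value and the summit position. In the lists the authors deposited, −log10 q-values were at least 2 in replicate 1 and −log10 p-values at least 2 in replicate 2, with narrowest peaks of 120 and 150 bp, so list lengths differ between the sets.

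Per the labels, titles without a number were taken as replicate 1 and those ending in 2 as replicate 2. The labels give the sets different extraction and size selection, so a number marks a batch, and this, not a correlation, is the source of the pairing; WT and STAG2-KD were compared within a number. Whole lists were handled, and peaks off chromosomes 1 to 22, X and Y (2.97% to 4.60% of rows in replicate 1, 0.137% to 0.253% in replicate 2) were left out. Overlap was at least 1 bp.

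Positions are 1-based in hg19, with sequence of GRCh37 and GENCODE 44 on that build. Python 3.11.15, numpy 2.4.6, pandas 2.3.3, scipy 1.17.1, pysam 0.24.0 and matplotlib 3.10.9 were used. The depth was found from fold and p-value columns with a 2.7 Gb genome and fragments as long as the narrowest peak, neither of which is stated; MACS2 scales to the smaller of library and input, so it is a lower limit for the library. The overlap counts were tested on 20000 simulated sites.

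Members, windows and lists were chosen with earlier results of these data known. All 10 genes were named, with the site of highest mean CTCF percentile, the site within 1 kb of the gene's 5′ end, the sites lost or gained in both replicates, and the CTCF sites within 6 kb upstream of H19. Other sites named, the search for the H19 repeat and its stretches, and the fit without GRB10 were chosen after values were seen. Alternatives were stricter or common thresholds, equal list lengths, other windows, 50% overlap, ranking by p-value, each replicate alone and the replicate block.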

Additional observations from a re-analysis of the deposited data

Results flagged for a closer look

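In peak number and in the median percentile, STAG1 moved the opposite way to the proteins named for each in both replicates. These differences were not tested. The log2 ratio of peak number, STAG2-KD to WT, was higher for STAG1 than for STAG2 by 0.528, than for CTCF by 0.361 and than for SMC1A by 0.424. The difference in median percentile at sites in all 4 lists was higher for STAG1 than for STAG2 by 21.0 and than for CTCF by 12.2. In the whole lists the log2 ratios of STAG1 were 0.43 and 0.09, and those of STAG2 −0.43 and −0.16, in the same directions as in the windows. The median change of percentile genome-wide also went in opposite directions for STAG1 (9.02 and 1.25) and STAG2 (−8.51 and −1.88). That of CTCF differed in direction between replicates (0.85 and −1.58). With equal list lengths the STAG1 ratio in the windows turned to −0.12. By fold the opposite movement was not seen in replicate 2. The median log2 difference at the sites was −0.06 for STAG1 there, the same sign as STAG2 (−0.31) and CTCF (−0.09).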

How the results depend on the processing

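The values below are log2 ratios of peak number, percentile differences, or counts of lost and gained peaks averaged over the replicates, STAG2-KD against WT. When each list was limited to its 58521 peaks of highest −log10 p, the STAG1 peak number turned from 0.15 to −0.12. Those of STAG2 and CTCF went from −0.38 to −0.037 and from −0.21 to −0.022 (exact permutation p = 1 each). The CTCF percentile turned from −1.81 to 1.85. Percentiles at equal lengths or other thresholds were still ranks in the full lists, so only the set of peaks differed. With equal lengths, STAG1 gains went from 7 to 0.5, STAG2 losses from 12.5 to 3.5 and CTCF losses from 9 to 3.5. SMC1A losses went from 18 to 4.5 and SMC1A gains from 9.5 to 1.5. With −log10 q of at least 5, STAG1 losses were 0.5 and gains 3, CTCF losses 4, and SMC1A losses 4 and gains 3. In gene bodies alone, STAG1 gains were 4.5, STAG2 losses 7.5 and gains 0.5, and SMC1A gains 5.5. With 50 kb on each side, the SMC1A peak number turned to 0.032, and STAG1 gains were 17, STAG2 gains 5, CTCF gains 9 and SMC1A gains 27, with 15.5 CTCF losses. Without GRB10, which was tried after seeing the data, the CTCF percentile turned to 1.86, STAG1 losses were 1, STAG2 losses 4.5, CTCF losses 5 and SMC1A losses 7.5, and gains 1.5 for CTCF and 5.5 for SMC1A. Fewer peaks or genes counted lower these counts by construction; the cause of the turned signs was not tested.

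With each replicate left out in turn, the SMC1A percentile ran from −0.27 to 7.29, that of STAG1 from 2.52 to 18.3, that of STAG2 from −18.00 to −3.09, CTCF gains from 0 to 5, SMC1A losses from 9 to 27 and SMC1A gains from 6 to 13; the other counts stayed within 1.5 times their mean and the other differences kept their sign. The common threshold, 50% overlap and ranking by p-value turned no sign and moved no count by more than 1.5 times.

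With the replicate block, a sign-flip over the pairs, the mean differences are the same (0.15, −0.38, −0.21 and −0.27 in peak number for STAG1, STAG2, CTCF and SMC1A) and exact permutation p is 0.5, the smallest that 2 pairs allow, so it changed no call. The tests cannot reach 0.05 and say nothing about stability. No counts of reads per site were used, so differences in fold have no counting interval, and the depth limits weak peaks most: a site just under the authors' threshold counts as absent.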

Other observations

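In 23 other imprinted genes, kept from a list of 29 after leaving out 6 whose windows overlap those above, 33.0% of 91 and 26.5% of 132 STAG2 peaks were lost, and 29.1% of 86 and 21.2% of 113 STAG1 peaks were gained, in replicates 1 and 2. For CTCF, 15.96% and 18.8% were lost and 17.0% and 10.3% gained. For SMC1A, 18.6% and 29.0% were lost and 27.4% and 26.4% gained.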
